A study of Mus musculus with 6 samples.

Results

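A set of 34 genes for folding, quality control and degradation of proteins in the endoplasmic reticulum (ER) was followed in mouse CD8+ T cells kept with or without palmitate. The members were taken by name from a list of ER genes, and all 34 were present among the 29370 genes of the deposited gene matrix. They comprised 17 folding genes, 10 degradation genes, 4 stress sensor genes and 3 genes of the translocation channel. The cells were wild-type (WT) CD8+ T cells, a killer lymphocyte class that destroys infected cells and tumours, taken from pancreas, spleen and lymph nodes. The 3 palmitate libraries came from cells given 100 µM palmitate, a saturated fatty acid, in complete T cell medium, and the 3 control libraries from cells labelled as control. The time of treatment was 48 h. The age of the mice and the vehicle in the control medium are not given in the sources used here. Nor is it stated whether the replicates were separate mice or cultures. The p-values therefore rest on library-to-library spread alone, some or all of it possibly technical.

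The ER is where secreted and membrane proteins enter through the translocation channel, fold with the help of chaperones and form disulfide bonds. Proteins that fail to fold are sent back to the cytosol and degraded by the proteasome. When unfolded proteins build up, the sensors IRE1 (gene Ern1), ATF6 and PERK (Eif2ak3) start the unfolded protein response. ATF6 and the spliced form of XBP1 then raise transcription of chaperone and degradation genes, whereas PERK phosphorylates the initiation factor eIF2 and favours translation of ATF4, which induces Ddit3 (CHOP). In T cells this response is known to accompany activation and secretion.

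The promoters of some of these genes share a sequence, and the matches are printed here as a description of that part of the set. The shares of members and of all windows were not tested against each other. The ER stress response element (ERSE), which is CCAAT, then 9 bases of any kind, then CCACG, was searched on both strands in 300-base windows from RefSeq (build GRCm38.p6), each running from 250 bases before to 50 bases after a gene's start. Windows were given for 29 of the 34 members, and not for Atf6, Derl1, Hyou1, Manf and Sec61a1. An exact ERSE lay in the windows of 10 of the 29 members (34.5%) and in 39 of all 32851 windows (0.119%). Members were counted by gene here and below, whereas the 39 windows belonged to 37 genes. Each match is printed with 10 bases on either side, read 5′ to 3′ on the strand that holds it, with CCAAT and CCACG in capitals.

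Hspa5 (chr2:34772015-34772053, plus strand): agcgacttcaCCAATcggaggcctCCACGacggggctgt
Hsp90b1 (chr10:86705628-86705666, minus strand): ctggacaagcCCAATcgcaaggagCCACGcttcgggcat
Hsp90b1 (chr10:86705523-86705561, plus strand): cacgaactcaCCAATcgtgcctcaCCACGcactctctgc
Calr (chr8:84847065-84847103, plus strand): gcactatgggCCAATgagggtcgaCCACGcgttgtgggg
Canx (chr11:50325790-50325828, minus strand): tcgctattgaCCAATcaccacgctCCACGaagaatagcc
Pdia6 (chr12:17266481-17266519, plus strand): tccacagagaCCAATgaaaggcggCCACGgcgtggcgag
Ero1b (chr13:12565672-12565710, minus strand): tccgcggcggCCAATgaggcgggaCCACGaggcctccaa
Dnajc3 (chr14:118937817-118937855, plus strand): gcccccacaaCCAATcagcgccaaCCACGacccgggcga
Creld2 (chr15:88819510-88819548, minus strand): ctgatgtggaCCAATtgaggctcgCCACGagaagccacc
Syvn1 (chr19:6046522-6046560, plus strand): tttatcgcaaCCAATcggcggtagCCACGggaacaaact
Derl3 (chr10:75893232-75893270, minus strand): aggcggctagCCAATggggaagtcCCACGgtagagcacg

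The related ERSE-II, which is ATTGG, 1 base of any kind and CCACG, shares CCACG with the ERSE and begins with the reverse complement of CCAAT. It was found in 12 of all windows (0.037%) and in those of Herpud1 and Dnajb11. The Herpud1 match is printed with ATTGG and CCACG in capitals.

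Herpud1 (chr8:94386367-94386397, plus strand): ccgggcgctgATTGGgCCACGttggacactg

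The core of the unfolded protein response element, TGACGTGG, has last letters that are the reverse complement of CCACG. It was in 222 of all windows (0.676%) and in the windows of 0 of the 29 members. A count with at most 1 mismatch in the fixed letters was added after the exact matches were seen. Such an ERSE lay in the windows of 15 of the 29 members (51.7%) and in 494 of all windows (1.504%). A match is a run of letters and was not tested as a binding site.

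**Figure D1:**
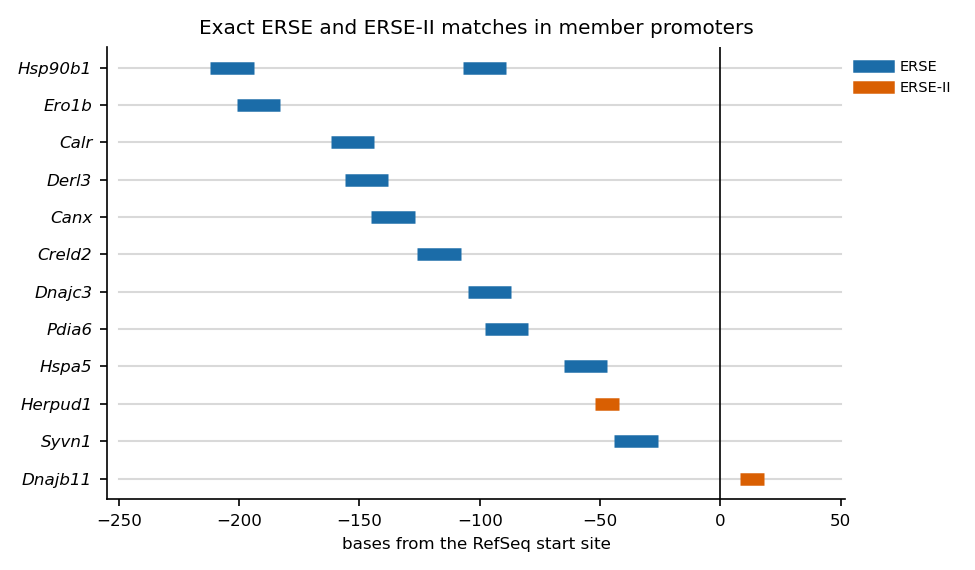
Position of each exact ERSE (blue) and ERSE-II (orange) match in the member promoters, in bases from the RefSeq start site (vertical line at 0), with each grey line the window searched. All ERSE matches lie upstream of the start, from -212 in Hsp90b1 to -26 in Syvn1, and the ERSE-II match of Dnajb11 lies just after it.

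After 48 h of palmitate, 5 of the 33 members tested rose, each by less than 1.5-fold, and 0 fell. They were Calr, Pdia4 and Hyou1 among the folding genes and Syvn1 and Os9 among the degradation genes. The master chaperone gene Hspa5, the 3 sensor genes and Xbp1 did not pass the test. The test was edgeR's quasi-likelihood test over 12068 genes with Benjamini-Hochberg adjustment at 0.05. It had the group as its single term and did not pair libraries. Every adjusted p below comes from it unless another fit is named. This test called 22.9% of all genes in either direction, 11.1% as risen and 11.7% as fallen, against 15.2% of the tested members risen. With both directions pooled the members' share was below that of all genes, whereas their share risen was above it. With 33 members these shares are descriptions.

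In the gene matrix the changes among the members were small on the log2 scale; Derl3 and Ero1b, whose transcripts the matrix left out in whole or in part, changed more on transcript sums (1.36 and -0.88). The largest log2 fold change in the matrix, that of Syvn1, was 0.57, and 21 of the 33 (63.6%) lay under 0.2 in size, against 41.4% of all genes tested. The median over the members was 0.09, against 0.02 over all genes, with 20 members higher and 13 lower by value. The 95% interval of the fold change lay within 1.5-fold either way for 29 members and within 2-fold for 32. Their precision was better than usual, with a median standard error (SE) of 0.082 against 0.125 over all genes. The groups did not overlap for 8 members with higher values in palmitate (24.2%) and for 1 with lower values (3%, Sdf2l1), against 21.6% and 21.2% of all genes.

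The test above did not use the replicate numbers. They were treated as pairing the libraries only in an alternative fit and in the comparisons of same-number pairs. That pairing is an assumption, since the labels do not say what the numbers stand for. Deviations of same-number libraries correlated at 0.13 to 0.226. Deviations within a group cancel out, so positive values here bring negative ones between other numbers. Adding the replicate number to the model as a block moved the count by over 1.5 times. The blocked fit called 8 members as risen and 1 as fallen, with backgrounds of 16.5% and 16.6% of all genes. The genes it added were Dnajb9 (adjusted p = 0.0423), Herpud1 (adjusted p = 0.0217) and Atf6 (adjusted p = 0.0275), which rose, and Ssr1 (adjusted p = 0.0285), which fell. Leaving out a single library took the count the other way. Without control library 1, 2 members rose and 1 fell, namely Ssr1, which was not called with all libraries. The members called, all risen, were 2 without palmitate library 1 and 1 without palmitate library 3. The count was 0 without control library 2, control library 3 or palmitate library 2. The calls over all genes moved as well: 13% rose and 14.8% fell without control library 1. The share risen was 5.5% without palmitate library 1 and 5.4% without palmitate library 3. It was 5.2% without control library 2, 2.8% without control library 3 and 6.1% without palmitate library 2. In those last 3 fits, 9, 6 and 6 of the 33 members were higher at an unadjusted p under 0.05, as were 6 in the fit with all libraries. Over all genes, 1889 of 12365, 1705 of 12341 and 1922 of 12260 were higher at that p in those 3 fits. With all libraries it was 2249 of 12068 genes.

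**Figure D2:**
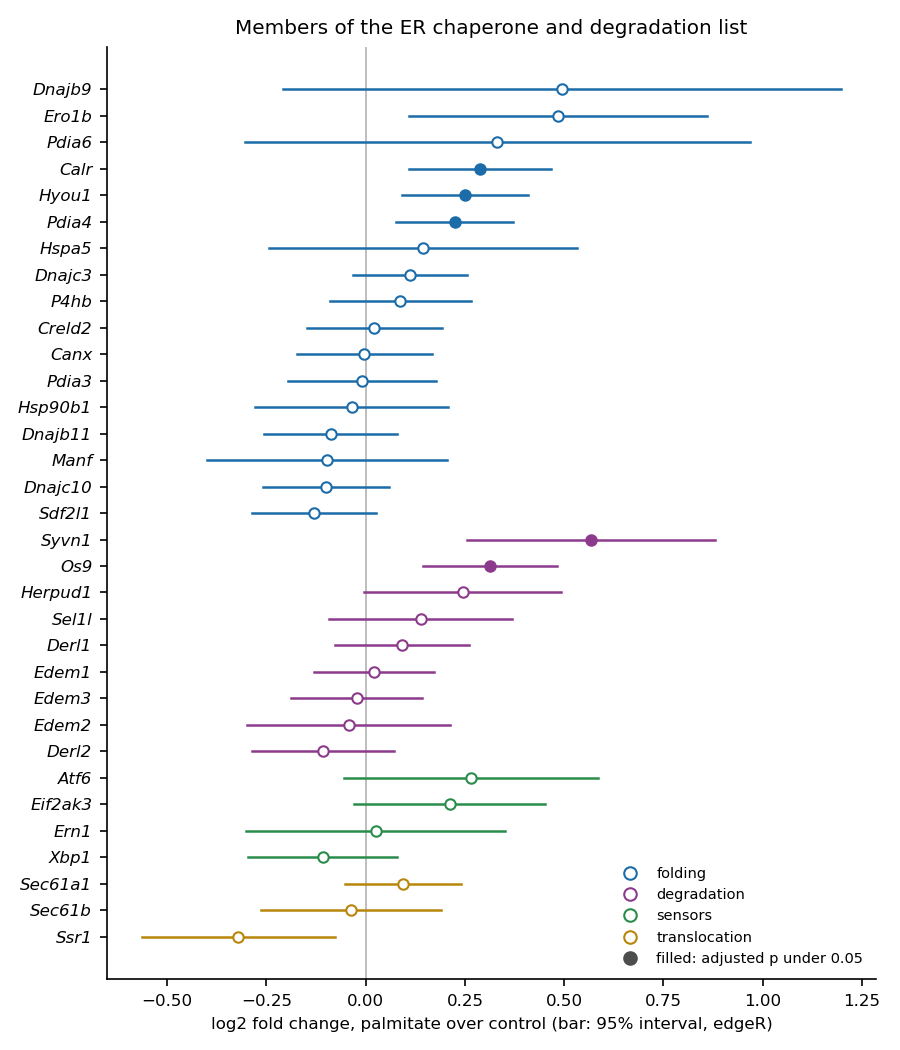
Log2 fold change of palmitate over control for the 33 members tested (circles) with its 95% interval (bars), by class. The 5 filled circles, Calr, Hyou1, Pdia4, Syvn1 and Os9, passed an adjusted p of 0.05, and 29 of the 33 intervals stay within 1.5-fold either way.

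Hspa5 encodes BiP, the Hsp70 chaperone of the ER lumen that also holds the sensors inactive, and it was the most abundant member per length. Its level was 1308, 1787 and 1713 CPM (counts, per-million scale) in control libraries 1 to 3 and 1396, 2010 and 1910 CPM in palmitate libraries 1 to 3. The groups overlapped, library 1 was the lowest in each, and palmitate was the higher in all 3 same-number pairs. The log2 fold change was 0.15 ± 0.17 (SE), with a 95% interval of -0.24 to 0.53 and an adjusted p of 0.56 (0.137 with the replicate block). Hsp90b1 encodes GRP94, the Hsp90 chaperone of the ER. It stood at 1114, 1397 and 1324 CPM in control and at 1125, 1311 and 1307 CPM in palmitate. These groups overlapped in full, with a log2 fold change of -0.04 ± 0.11 (SE) and an adjusted p of 0.832.

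Calr, the gene of the soluble lectin chaperone calreticulin, rose. It measured 910, 887 and 949 CPM in control and 1031, 1173 and 1148 CPM in palmitate. Every palmitate library was above every control library. The log2 fold change was 0.29 ± 0.08 (SE), or 1.22-fold, with an adjusted p of 0.0329. Canx encodes calnexin, its membrane-bound counterpart that binds the same sugar chains, and its log2 fold change was 0.00 ± 0.07 (SE) with an adjusted p of 0.975. Pdia3, the disulfide isomerase that works with both, was at -0.01 ± 0.08 (SE) with an adjusted p of 0.943. The difference between Calr and these partners was not itself tested.

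Among the other disulfide isomerases, Pdia4 rose and P4hb did not pass the test. Pdia4 measured 235, 240 and 250 CPM in control and 275, 284 and 286 CPM in palmitate. The libraries of each group lay close together and the groups were apart. The log2 fold change was 0.22 ± 0.06 (SE), or 1.17-fold, with an adjusted p of 0.0399. This call was lost when any single library was left out. It was also lost with no filter on low counts (edgeR, adjusted p = 0.0843) and on transcript sums without offsets (edgeR, adjusted p = 0.0509). P4hb, the most abundant isomerase of this set per length after Pdia3, was at 0.09 ± 0.08 (SE) with an adjusted p of 0.447.

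Hyou1 encodes a large chaperone that exchanges nucleotide on BiP. It measured 279, 292 and 279 CPM in control and 319, 345 and 347 CPM in palmitate. The groups were apart, with a log2 fold change of 0.25 ± 0.07 (SE), or 1.19-fold, and an adjusted p of 0.035. This call was lost with no filter on low counts (edgeR, adjusted p = 0.058). The J-domain cochaperones of BiP did not pass the test. Dnajb9, which represses IRE1, had the widest spread of them: 7.77, 17.3 and 15.3 CPM in control and 15.4, 19.1 and 22.4 CPM in palmitate. Control library 1 was below every other library, and the log2 fold change was 0.50 ± 0.30 (SE) with an adjusted p of 0.265. Dnajc3, Dnajb11 and Dnajc10 had log2 fold changes of 0.11, -0.09 and -0.10. The remaining folding genes were Sdf2l1 (-0.13), Manf (-0.10) and Creld2 (0.02), which encode small ER proteins induced by stress, and their adjusted p ran from 0.195 for Sdf2l1 to 0.851 for Creld2.

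Pdia6, a further isomerase, had counts that varied within each group. Its counts gave 20.3, 19.97 and 13.1 CPM in control and 16.5, 19.97 and 31.0 CPM in palmitate, with a log2 fold change of 0.33 ± 0.27 (SE) and an adjusted p of 0.404. Over all libraries 51.1% of its reads were assigned to the retained-intron transcript Pdia6-204. The coding transcript Pdia6-201 was at 0 reads in control library 3 and palmitate libraries 1 and 2 and at 222 to 273 reads in the other 3 libraries, so the split between transcripts varied within each group. Per length, over all its transcripts, Pdia6 was at 22.35, 17.58 and 18.21 TPM in control and 24.96, 25.85 and 27.16 TPM in palmitate. These groups were apart. The fit on transcript sums with length offsets gave 0.377 ± 0.125 (SE) and did not call it (adjusted p = 0.0624).

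Syvn1 and Os9 act on the same step: Syvn1 encodes HRD1, the ubiquitin ligase of ER-associated degradation, and Os9 a lectin that hands misfolded glycoproteins to it. Syvn1 measured 7.26, 6.30 and 7.96 CPM in control and 10.6, 11.0 and 10.3 CPM in palmitate. The groups were apart, and the log2 fold change of 0.57 ± 0.14 (SE), or 1.48-fold, had an adjusted p of 0.0228. The matrix held 75.8% of the reads assigned to Syvn1 transcripts, and the retained-intron transcript Syvn1-208 held 24.1% of them. With all transcripts and length offsets the value was 0.57 ± 0.21 (SE) and the call was lost (adjusted p = 0.0852).

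Os9 measured 58.4, 53.9 and 54.4 CPM in control and 70.6, 70.9 and 65.8 CPM in palmitate. The groups were apart here too, with a log2 fold change of 0.31 ± 0.07 (SE), or 1.24-fold, and an adjusted p of 0.0214. Its main transcript, Os9-201, held 73.6% of Os9 reads in control and 63.8% in palmitate on average (exact two-sided permutation test, p = 0.1, the smallest that 3 against 3 allows). Sel1l, the scaffold of the HRD1 complex, was at 0.14 ± 0.10 (SE) with an adjusted p of 0.349, and Herpud1, which recruits factors to it, at 0.24 ± 0.11 (SE) with an adjusted p of 0.139.

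The other degradation genes did not pass the test. Edem1, Edem2 and Edem3, which encode mannosidase-related proteins that mark glycoproteins for removal, had log2 fold changes of 0.02, -0.04 and -0.02. The derlins Derl1 and Derl2, membrane proteins of the retrotranslocation step, had 0.09 and -0.11. Their adjusted p ran from 0.343 for Derl2 to 0.843 for Edem1.

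Derl3, the remaining derlin, was listed at 0 in all 6 columns of the gene matrix and so was not among the 33 tested. The transcript tables nevertheless assigned reads to it: 21, 10 and 15 in control and 38, 33 and 20 in palmitate. Per length this was 0.849, 0.649 and 0.760 TPM (transcripts, per-million scale) in control and 2.43, 1.81 and 1.86 TPM in palmitate, so the groups were apart at a level below that of all other members in control. In the fit on transcript sums with length offsets Derl3 rose, by 1.36 ± 0.31 (SE) with an adjusted p of 0.0187. That fit called 9.24% of its 13093 genes as risen and 10.4% as fallen, and among the 34 members it called 4 as risen (Calr, Hyou1, Os9 and Derl3) and 1 as fallen (Ero1b). The call of Pdia4 was lost in it (adjusted p = 0.0542) at nearly the same value, 0.22 ± 0.07 (SE).

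Ero1b encodes a thiol oxidase that recharges the disulfide isomerases, and its direction depended on which of its transcripts were counted. The gene matrix gave 8.81, 11.8 and 11.0 CPM in control and 17.1, 14.7 and 12.2 CPM in palmitate. Palmitate was higher in every library, with a log2 fold change of 0.48 ± 0.16 (SE) and an adjusted p of 0.0652. The matrix held 30.9% of the reads assigned to Ero1b, however, and its counts of 256, 293, 312, 424, 375 and 204 were those of a single transcript, Ero1lb-201, rounded.

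The larger share of Ero1b reads lay on a shorter coding transcript, Ero1lb-203 (1964 bases, against 4239 bases for Ero1lb-201). It held 78.1%, 76.7% and 78.3% of the gene's reads in control and 42.0%, 56.4% and 53.7% in palmitate. Its mean share was 77.7% ± 0.90 (SD, n = 3) in control and 50.7% ± 7.69 (SD, n = 3) in palmitate (exact two-sided permutation test, p = 0.1, the smallest possible here). The level of this transcript was 28.9, 34.2 and 35.5 on a per-million scale of all transcript reads in control and 12.2, 18.2 and 13.4 in palmitate, whereas Ero1lb-201 was at 8.03, 10.3 and 9.65 in control and 16.1, 13.7 and 11.1 in palmitate. The 2 transcripts thus moved in opposite directions, with no overlap between groups in either. Over all its transcripts Ero1b fell, by 0.88 on the log2 scale (SE 0.14, adjusted p = 0.00435) in the fit with length offsets, and its value was -0.64 with an adjusted p of 0.00701 without them. The exact ERSE of Ero1b printed above lies upstream of the RefSeq start, and which transcript that start belongs to was not examined.

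**Figure D3:**
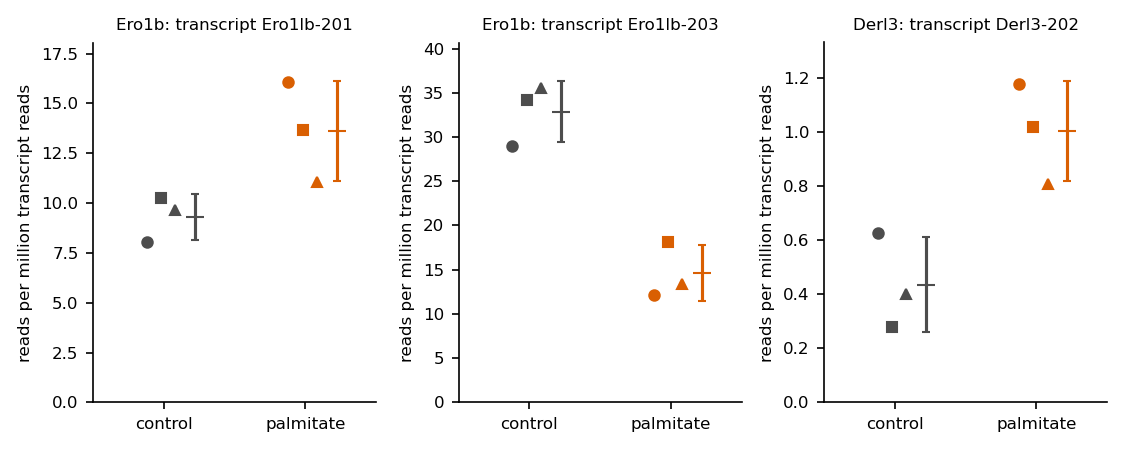
Per-million reads of the Ero1b transcripts Ero1lb-201 and Ero1lb-203 and of Derl3-202, the main Derl3 transcript, in each library (symbols 1 to 3) with mean and SD. Ero1lb-203 falls from 28.9 to 35.5 in control to 12.2 to 18.2 in palmitate while Ero1lb-201 is higher in palmitate, and Derl3-202 stays at 1.18 or below.

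The sensor genes did not pass the test in either direction. Ern1, the gene of IRE1, measured 8.46, 8.34 and 7.26 CPM in control and 8.23, 8.92 and 7.28 CPM in palmitate. The libraries of both groups were interleaved, with a log2 fold change of 0.02 ± 0.14 (SE) and an adjusted p of 0.915. Its value was -0.26 with an adjusted p of 0.31 in the fit on transcript sums with length offsets. Eif2ak3, the gene of PERK, measured 31.4, 34.8 and 33.9 CPM in control and 34.2, 43.5 and 38.2 CPM in palmitate. It was higher in palmitate in all 3 pairs while the groups overlapped, at 0.21 ± 0.10 (SE) with an adjusted p of 0.176.

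Atf6 encodes the sensor that is itself cut to release a transcription factor. It measured 64.9, 93.5 and 81.1 CPM in control and 84.8, 99.7 and 103.2 CPM in palmitate. Library 1 was again the lowest of each group, and palmitate was higher in all 3 pairs. The log2 fold change was 0.26 ± 0.14 (SE) with an adjusted p of 0.20, and Atf6 rose in the fit with the replicate block (adjusted p = 0.0275).

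Xbp1, whose RNA is spliced by IRE1 to encode the active factor, measured 233.5, 233.1 and 270.1 CPM in control and 229.7, 216.6 and 237.2 CPM in palmitate. It was lower in palmitate in all 3 pairs, although the groups overlapped, with a log2 fold change of -0.11 ± 0.08 (SE), a 95% interval of -0.30 to 0.08 and an adjusted p of 0.366. Transcript Xbp1-201 held 92.1% to 95.2% of its reads, and the spliced and unspliced forms were not measured apart here.

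In the translocation class, Sec61a1 and Sec61b, subunits of the channel, were at 0.09 and -0.04, with adjusted p of 0.315 and 0.807. Ssr1, a subunit of the channel-associated TRAP complex, had the lowest fold change of all members in the gene matrix, although Ero1b was lower over all its transcripts. It measured 325.8, 409.9 and 393.8 CPM in control and 295.9, 278.1 and 330.4 CPM in palmitate. It was lower in palmitate in all 3 pairs, with control library 1 just below the highest palmitate library. The log2 fold change was -0.32 ± 0.11 (SE) with an adjusted p of 0.0615, and it fell in the fit with the replicate block (adjusted p = 0.0285). The matrix held 81.5% of its reads, the same share as its transcript Ssr1-201.

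**Figure D4:**
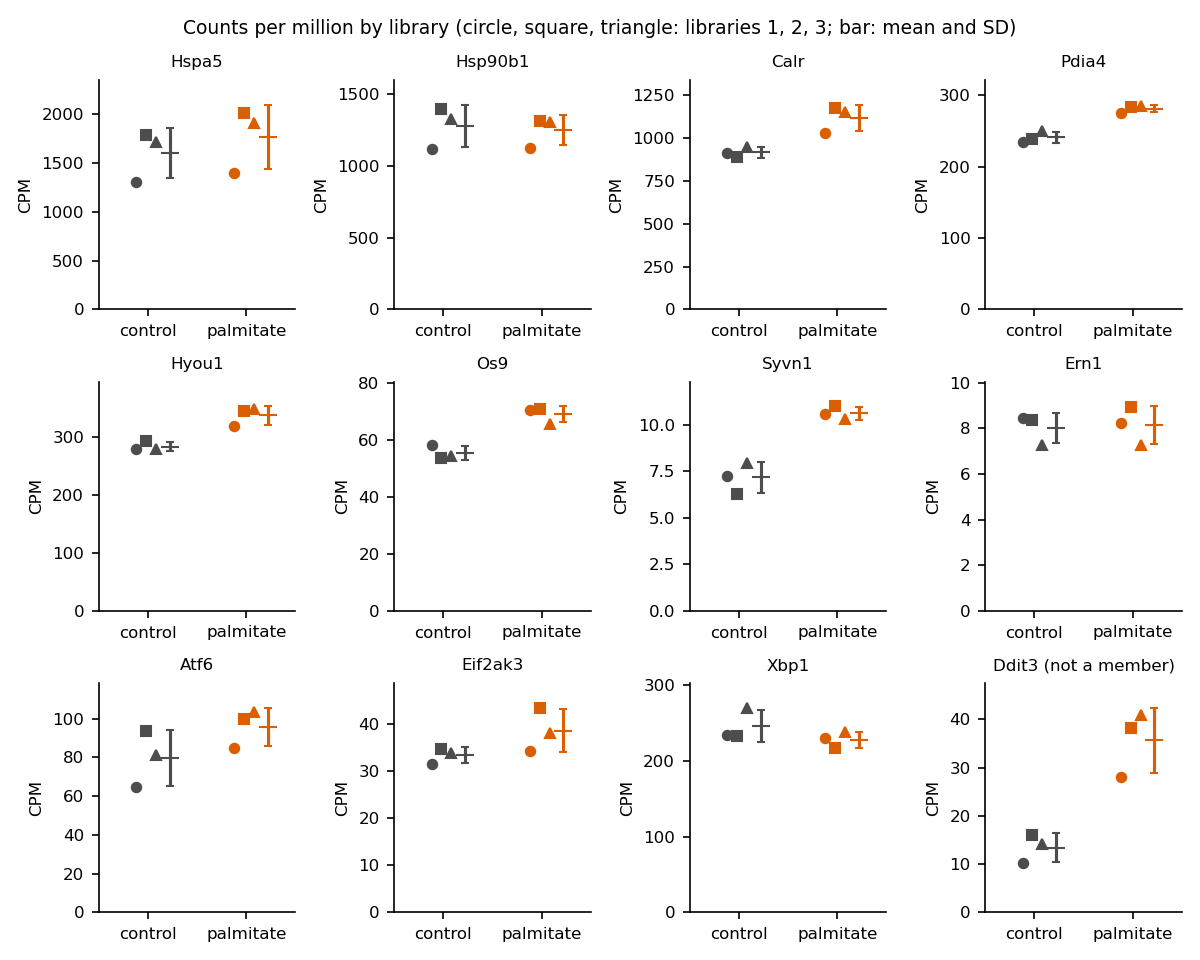
CPM in each library for 11 members and for Ddit3, which is not a member, with the mean and SD at the side of each group; each axis starts at 0. Calr, Pdia4, Hyou1, Os9 and Syvn1 are apart between groups by small steps, library 1 is low in both groups for Hspa5, Hsp90b1 and Atf6, and Ddit3 shows the larger step.

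By class, 3 of 17 folding genes rose (median log2 fold change 0.09), as did 2 of the 9 degradation genes tested (median 0.09), 0 of 4 sensor genes (median 0.12) and 0 of 3 translocation genes (median -0.04), against 11.1% risen and 11.7% fallen over all genes. With so few genes a class, these counts are descriptions. For the sensor and translocation classes this was edgeR's test, in which 0 and 1 gene (Ssr1, lower) passed an unadjusted p of 0.05, and DESeq2 called 0 and 1. Of all 12068 genes, 2249 were higher and 2308 lower at that unadjusted p. DESeq2 called 11.9% of all genes as risen and 15.8% as fallen. The folding median was 0.00 on transcript sums with length offsets and the degradation median 0.19.

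Levels between genes were compared in TPM, which divides by transcript length. In control Hspa5 was highest at 717 ± 95.6 TPM (SD, n = 3), above Canx at 485 ± 12.5, Hsp90b1 at 474 ± 41.9, Sec61b at 454 ± 51.3 and Calr at 453 ± 17.5 (SD, n = 3). Each of the last 4 overlapped its neighbour in this order in control, although every Canx library was above every Calr library. Then came Manf at 359, Pdia3 at 311, P4hb at 202 and Xbp1 at 155 TPM. The least abundant were Syvn1 at 4.32, Ern1 at 2.19 and Derl3 at 0.753 TPM. Of the 33 neighbouring pairs in this order, 16 had overlapping control libraries.

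In palmitate Calr stood at 572 ± 30.6 TPM (SD, n = 3), moving from rank 5 to rank 2, and Ero1b went from 27.4 ± 3.16 to 15.4 ± 2.21 TPM (SD, n = 3), from rank 24 to rank 29. The summed level of all 34 members was 4710, 5175 and 5161 TPM in control and 5131, 5652 and 5321 TPM in palmitate, so the groups overlapped. Summed over the degradation genes it was 458 ± 22.8 TPM in control and 519 ± 24.7 TPM in palmitate, and over the sensors 180 ± 11.7 and 179 ± 6.75 TPM (SD, n = 3 each).

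**Figure D5:**
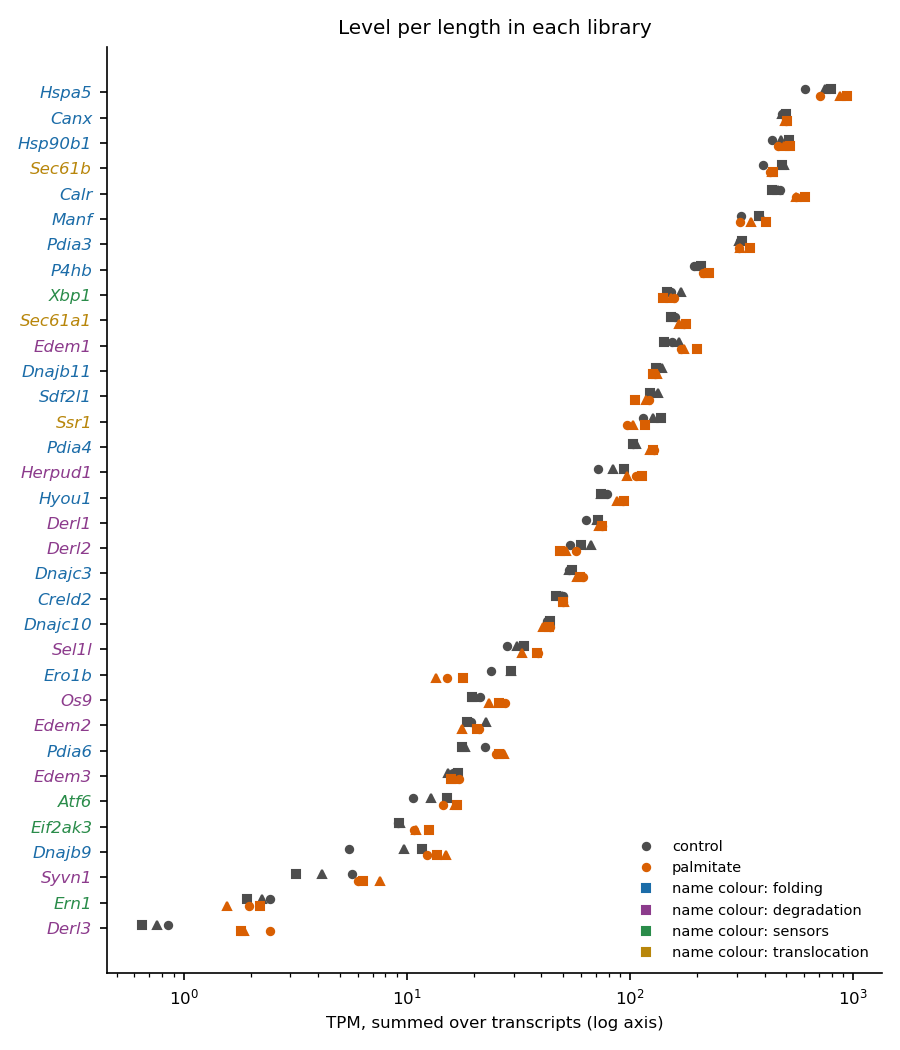
Level of each member in TPM on a log axis, in order of the control mean, with every control (grey) and palmitate (orange) library as a symbol. Levels run from 717 TPM for Hspa5 to 0.753 TPM for Derl3 in control, and the groups stand far apart for Ero1b and Derl3.

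The values of the members with an ERSE were compared with those of other genes that hold it, as a description. Of the 10 members with an exact ERSE, 9 were tested, 2 rose (Calr and Syvn1) and 0 fell, with log2 fold changes from -0.04 (Hsp90b1, with a pair of sites) to 0.57 (Syvn1) and a median of 0.15, against 11.1% risen and a median of 0.02 over all genes. These values are those of the gene matrix, so for Ero1b they rest on Ero1lb-201 alone. Among 27 other genes with an exact ERSE in their window, 8 were tested, 1 rose and 0 fell, with a median of -0.03. Pdia4 and Os9 rose without an exact ERSE in their windows. With at most 1 mismatch allowed, Pdia4 was among the 15 members with an ERSE and Os9 was not. No match says only that those letters are not in the window.

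Many members shared a pattern across libraries that did not follow the treatment. For 16 of the 33 (48.5%), library 1 was the lowest in both groups, against 20.3% of all genes tested. Hspa5, Dnajb9, Herpud1, Sel1l and Atf6 were among them. Palmitate was higher than control in all 3 same-number pairs for 16 members and lower in all 3 for 4 members. The same count was not made over all genes, so it does not set the members apart from other genes. The labels do not say what the replicate number stands for.

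Ddit3 (CHOP), which the PERK arm induces, rose in the same libraries. It measured 10.2, 16.0 and 14.2 CPM in control and 28.1, 38.2 and 40.9 CPM in palmitate. The groups were apart, and the log2 fold change of 1.41 ± 0.20 (SE) had an adjusted p of 0.00559, with the call kept when any single library was left out. Of the 12 genes listed for this arm, 1 rose and 1 fell, against 11.1% and 11.7% of all genes. The fall was that of Eif2s1, the alpha subunit of eIF2, at -0.31 with an adjusted p of 0.0402. Atf4 was at -0.11 with an adjusted p of 0.62, Trib3 at 0.12, Chac1 at 0.03 and Atf3 at 0.04. Ppp1r15a (GADD34), which reverses PERK's phosphorylation, was at 0.51 ± 0.24 (SE) with an adjusted p of 0.166. It rose in the fit with the replicate block (adjusted p = 0.00351). In that fit 4 genes of the arm rose and 1 fell, against 16.5% and 16.6% of all genes.

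Other ER genes, in lists of which none is a member, mostly did not pass the test either. Of 28 further folding genes 6 rose (21.4%) and 4 fell (14.3%), with a median of -0.01, against 11.1% and 11.7% over all genes. The count of falls was 8 with DESeq2 and without control library 1, and 1 when any other library was left out. The count of rises was 0 to 3 with a library left out. Over all genes 15.8% fell with DESeq2 and 14.8% without control library 1. The falls included Dnajb14, a membrane J-domain protein, by 1.18 on the log2 scale (SE 0.14, adjusted p = 0.00375), and Tmx3, a membrane thiol isomerase, by 0.62 (adjusted p = 0.0263). The rises included the thiol oxidase Qsox1 at 0.65 (adjusted p = 0.022) and Sdf2 at 0.33 (adjusted p = 0.0293). With transcript sums and length offsets 0 of this list rose and 4 fell, with 5 higher at an unadjusted p under 0.05. Over all genes 9.24% rose and 10.4% fell in that fit, with 2263 of 13093 higher at that unadjusted p.

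Of 30 further degradation genes 0 rose and 1 fell, the ubiquitin-conjugating enzyme Ube2j2 at -0.30 (adjusted p = 0.0223). In edgeR's test 3 genes of that list were higher at an unadjusted p under 0.05, and DESeq2 called 0 as risen and 2 as fallen. The replicate block called 1 as risen and 2 as fallen, and the fit without control library 1 called 2 and 3. Of 31 further translocation and glycosylation genes 0 rose and 1 fell, the signal recognition particle gene Srp19 at -0.61 ± 0.07 (SE, adjusted p = 0.00312). There 3 were higher at an unadjusted p under 0.05. The falls were 3 with DESeq2, 4 with the replicate block and 3 without control library 1, beside 0, 1 and 1 rises. Over all genes 11.1% rose and 11.7% fell in edgeR's test, and 2249 of 12068 were higher at an unadjusted p under 0.05. The shares risen and fallen were 11.9% and 15.8% with DESeq2 and 16.5% and 16.6% with the replicate block. They were 13% and 14.8% without control library 1.

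Among 14 partners of the sensors, 2 rose and 0 fell, against 11.1% and 11.7% of all genes. They were Creb3, a membrane-bound transcription factor cut like ATF6, at 0.75 ± 0.11 (SE, adjusted p = 0.00524), and Mbtps1, the protease that makes the initial cut in ATF6, at 0.32 (adjusted p = 0.0465). The matrix held 61.6% of Mbtps1 reads, and with all its transcripts and length offsets the call was lost (adjusted p = 0.114). Of 23 genes for export from the ER in coated vesicles, 2 rose and 1 fell. The cargo adaptors Sec24d and Sec24a went apart, at 0.83 (adjusted p = 0.00611) and -0.75 (adjusted p = 0.00515), and the scaffold gene Sec16a rose by 0.31 (adjusted p = 0.041), a call lost when any single library was left out. With transcript sums and length offsets neither rise was called: Sec24d was at 0.59 (adjusted p = 0.0855) and Sec16a at 0.15 (adjusted p = 0.383). The replicate block called 4 of the list as risen and 1 as fallen, against 16.5% and 16.6% of all genes.

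The libraries summed to 16724588 to 29362276 gene counts, and 90.3% to 91.1% of the reads assigned to transcripts were in the gene matrix. In bulk RNA, fewer cells of a type and less RNA per cell cannot be told apart. The CD8 T cell markers summed to 1216 to 1515 CPM in control and 1683 to 1908 CPM in palmitate, and 5 of 7 rose, among them Cd8a and Cd3e. Beside this and the marker counts below, 11.1% of all genes rose. Markers of antibody-secreting cells, which hold much ER, summed to 995 to 1016 CPM in control and 1055 to 1133 CPM in palmitate. Most of this sum was Irf4, which activated T cells also express, at 717 to 781 CPM over the 6 libraries (log2 fold change 0.01, adjusted p = 0.925), and Ighm, at 157 to 250.1 CPM. Of the 12 tested 2 rose: Jchain, at 1.58, 1.24 and 2.50 CPM in control and 6.78, 10.7 and 11.8 CPM in palmitate, and Igha, at a log2 fold change of 3.19 (adjusted p = 0.0129). Igkc measured 2.79, 5.81 and 6.10 CPM in control and 6.98, 19.7 and 19.8 CPM in palmitate, at 1.66 with an adjusted p of 0.0514. Ighm was at 0.35 with an adjusted p of 0.0801. Lower by value were Sdc1, a defining marker, at -0.43 (adjusted p = 0.172), Prdm1 at -0.66 (adjusted p = 0.0631) and Eaf2 at -0.12 (adjusted p = 0.726). Mzb1 was at 0 in 3 libraries and at most at 1.67 CPM, and Tnfrsf17 was at 0 in all 6.

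B cell markers summed to 14.1 to 17.0 CPM in control and 16.9 to 25.4 CPM in palmitate. Of 6 tested 1 rose (Cd79a), against 11.1% of all genes. The part of these cells in the rises of the folding and degradation genes, Derl3 included, was not tested. Of the pancreatic markers, Ins1 was at 0 in all 6 libraries, and the acinar list summed to 2.54 to 3.21 CPM in control and 3.27 to 4.89 CPM in palmitate, with Cpa1 at 0 in 5 libraries. Of its 4 genes tested 1 rose, the trypsin gene Try5, at 0.035 to 0.12 CPM in control and 0.847 to 0.983 CPM in palmitate (adjusted p = 0.00401). Of the stroma and endothelium list, Pecam1 rose, from 35.4 to 41.8 CPM in control to 46.3 to 63.7 CPM in palmitate, and made up nearly all of the list's sum (35.5 to 41.9 and 46.7 to 63.7 CPM). The other 4 genes of that list, Col1a1, Col1a2, Col3a1 and Cdh5, were at most at 0.157 CPM in any library. Myeloid markers stayed at 3.14 to 5.27 CPM in all libraries.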

How the data were processed

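RNA from 3 control and 3 palmitate libraries of mouse CD8+ T cells was sequenced; per the labels' protocols, total RNA was taken with RNeasy kits and a SMARTER mRNA-Seq kit gave the libraries. Build GRCm39, Salmon 1.10.0, DESeq 1.42.0 and Trim Galore 0.6.10 are named in the submitters' processing notes. The authors deposited a matrix of whole-number estimated counts per gene, and a Salmon table per library with expected counts per transcript and TPM values (deposited per-million values divided by length). The strand setting and the table that joined transcripts to genes are not given in the sources used here.

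Gene symbols came from GENCODE M21 and RefSeq synonyms: 29134 of 29370 genes and 114857 of 116224 transcripts (98.82%) matched, the latter holding 99.45% to 99.49% of reads. No coordinates were taken from M21, an earlier build than GRCm39; promoter windows and their coordinates are RefSeq's on GRCm38.p6. The matrix's estimated counts went into edgeR 4.0.16 under R 4.3.3 (TMM scaling, filterByExpr with a minimum count of 10, robust quasi-likelihood fit, two-sided test, all 6 libraries, group as the single term, Benjamini-Hochberg adjustment over 12068 genes). CPM are on TMM-scaled totals. Transcript sums (expected counts, rounded) and sums with length offsets, RLE and upper-quartile scaling, no filter, limma-voom (limma 3.58.1), a minimum mean of 5 CPM, the replicate block, DESeq2 1.42.0 and leaving out each library were alternatives. The procedure was run on simulated counts with changes larger than those of Calr, Pdia4, Hyou1 and Os9. That run therefore says nothing about calls of their size.

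Members and lists were chosen with earlier results of these data known, so they are described by counts and medians with no list test. Members called, and Hspa5, Hsp90b1, Xbp1, Atf6, Ern1 and Eif2ak3, are given in full; Ero1b, Derl3, Pdia6, Dnajb9 and Ssr1, the PERK arm genes beside Ddit3 and Eif2s1, and the count of ERSE with a mismatch were picked after their values were seen. From each other ER list up to 2 called genes per direction are named. List entries matched for 243 of 245 names.

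Replicate numbers stand in the labels. Across genes, the deviation of a library from its group mean correlated with that of its same-number partner at 0.226, 0.13 and 0.152, and with that of other numbers at -0.185 to 0.061. On this ground the numbers were treated as pairing in the replicate block and in the same-number comparisons, and not in the main fit. That is an assumption, because deviations within a group cancel out and these correlations are not independent. Libraries of a group differed by more than sampling noise (chi-square per gene 11.4 to 37.9). Salmon divides reads between near-identical transcripts, so transcript values are estimates.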

Additional observations from a re-analysis of the deposited data

How the results depend on the processing

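Over all genes 2759 were called, and 690 to 3433 when a library was left out. Members called were 5, with 9 under the replicate block and 0 to 3 when a library was left out. Under the other settings 4 to 6 were called. With no filter on low counts they were 3 risen and 1 fallen, against 6.2% and 7.2% of all genes. The block, which treats same-number libraries as pairs, left the 5 rises called (adjusted p of 0.0118 to 0.0255). Of the 6 fits with a library left out, Os9 kept its call in 2. Calr, Hyou1 and Syvn1 each kept theirs in 1, and Pdia4 in 0. The split of all calls was 1343 risen and 1416 fallen, against 1651 and 1052 with upper-quartile scaling, which moved the median of all genes from 0.02 to 0.08 (log2). Class medians moved as follows (log2): folding from 0.086 to -0.001 on transcript sums with length offsets and 0.006 without them; degradation from 0.091 to 0.187 with those offsets and 0.15 with upper-quartile scaling, and over 0.028 to 0.120 with a library left out; sensors over 0.028 to 0.151 with a library left out.

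Of 495 comparisons of a single member with an alternative, 426 kept direction and side of the threshold, 30 lost the call, 8 gained one and 31 changed sign, in 11 members. With upper-quartile scaling Hsp90b1 became 0.024, Canx 0.055, Pdia3 0.049, Edem2 0.016, Edem3 0.035 and Sec61b 0.022. With a minimum mean of 5 CPM Canx became 0.022, Pdia3 0.016 and Edem3 0.0022. On transcript sums with length offsets Ero1b became -0.883 (-0.639 without offsets), Creld2 -0.00093 and Ern1 -0.259. For Ero1b the added transcript Ero1lb-203 moves the value by construction; for the others the cause was not tested. Leaving out a library gave ranges of -0.129 to 0.029 for Hsp90b1, -0.052 to 0.015 for Canx, -0.07 to 0.05 for Pdia3, -0.21 to 0.0031 for Manf, -0.017 to 0.05 for Creld2, -0.014 to 0.044 for Edem1, -0.114 to 0.072 for Edem2, -0.053 to 0.011 for Edem3, -0.054 to 0.095 for Ern1 and -0.136 to 0.031 for Sec61b. Derl3 rests on 10 to 38 reads per library.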
